A study of Mus musculus with 16 samples.

Results

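Macrophages that live in bone marrow form the centre of erythroblastic islands, in which maturing erythroblasts attach to a macrophage, receive support and shed their nuclei. The macrophage engulfs the nuclei, digests their DNA in lysosomes, recovers iron from haem of old red cells and returns it to the blood, and clears dying cells by way of complement and phosphatidylserine receptors. Such cells are known by surface proteins such as VCAM-1, the mannose receptor and sialoadhesin, and by the transcription factors Maf and Spic.

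The list followed here holds 35 gene names known from resident and erythroblastic island macrophages, taken by exact match of the gene name printed on the array, of 34650 gene names in all. The 35 genes are read by 45 probes, and 10 of them have more than 1 probe. Total RNA of whole bone marrow from 16 mice was measured on 1-colour Agilent arrays, 1 mouse per array. KO chimeras (8 mice) were lethally irradiated C57BL/6J mice (950 rad) that received whole marrow, by retro-orbital injection and with a 1:4 ratio of the knockout strain to C57BL/6J, from Adrb1tm1BkkAdrb2tm1Bkk/J donors, which carry targeted alleles of beta adrenergic receptor genes in all cells. Controls (8 mice) were C57BL/6J mice irradiated with 950 rad, and no donor is named for them. A recovery of 2 to 3 months before harvest is given for reconstituted mice, in text that stands on the control samples too. The labels do not say what the ratio counted, and they give neither the age nor the sex of the mice. Cells that survive irradiation, among them resident macrophages, are of the host, so the marrow of a chimera can hold macrophages of either origin, and receptor loss, the donors' genetic background and grafting cannot be told apart. In whole marrow, fewer cells of a type and less RNA per cell cannot be told apart either.

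A level here is the log2 of the processed signal over the 75th percentile of the same array, so that 0 is the signal at that percentile, and a difference is KO chimera minus control with the standard error of the fit over all genes (limma). That percentile spanned 127.2 to 545.5 signal units over the KO chimera arrays, against 230.9 to 557.7 over the control arrays, and an exact permutation test over all splits of the mice gave a two-sided p of 0.301. The scanner software placed 27792 to 37121 probes per KO chimera array well above background, against 29326 to 38762 per control array (p = 0.0692 by the same exact test), and no spot was saturated. The tissue label was checked on marrow markers. The neutrophil list was measured for 11 of 11 genes, with a summed linear signal of 2970 to 4510 times the 75th percentile in KO chimeras and 3170 to 3710 times in controls. The erythroid list was measured for 7 of 7 genes, at 878 to 1670 in KO chimeras and 802 to 1580 in controls. No member of either list was called between groups. Adrb1, the targeted gene whose probe lies at mm9 chr19:56797242-56797301, had a difference of 0.00 ± 0.11 (adjusted p = 0.998). A dimmer Adrb1 probe at chr19:56799215-56799274, well above background on 7 KO chimera and 6 control arrays, gave 0.95 ± 0.30 (adjusted p = 0.0276). The labels do not say which part of the gene the donors lack, so these probes do not check the genotype.

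The genes of the C1q chains lie side by side on chromosome 4, in the order C1qb, C1qc and C1qa between Ephb2 and Epha8, and only some of them were called between the groups. Cd5l showed the clearest separation of the list, and Mrc1 is the lower gene with the most matches to the PU.1 core. The promoters of C1qc, C1qb, Cd5l and Mrc1, windows that lie mostly upstream of the gene's start, are therefore printed 5′ to 3′ on the gene's strand, from RefSeq on GRCm38.p6. They lie at chr4:136892865-136893164 on the minus strand for C1qc, chr4:136886151-136886450 on the minus strand for C1qb, chr3:87357631-87357930 on the plus strand for Cd5l and chr2:14229164-14229463 on the plus strand for Mrc1. Capitals mark GAGGAA, the core bound by PU.1, a transcription factor that myeloid cells need, or TTCCTC where the core is on the other strand.
C1qc: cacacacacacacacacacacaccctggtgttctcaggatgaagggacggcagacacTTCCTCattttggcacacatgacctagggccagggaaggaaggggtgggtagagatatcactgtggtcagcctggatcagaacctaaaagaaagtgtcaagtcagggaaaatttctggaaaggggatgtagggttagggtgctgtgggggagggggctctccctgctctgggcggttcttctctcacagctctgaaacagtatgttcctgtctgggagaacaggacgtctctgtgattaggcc
C1qb: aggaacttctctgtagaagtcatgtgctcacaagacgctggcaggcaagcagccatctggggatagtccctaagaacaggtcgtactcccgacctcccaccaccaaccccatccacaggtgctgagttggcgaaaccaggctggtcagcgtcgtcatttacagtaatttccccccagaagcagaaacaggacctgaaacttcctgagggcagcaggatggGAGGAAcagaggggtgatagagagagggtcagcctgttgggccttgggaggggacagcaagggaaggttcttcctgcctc
Cd5l: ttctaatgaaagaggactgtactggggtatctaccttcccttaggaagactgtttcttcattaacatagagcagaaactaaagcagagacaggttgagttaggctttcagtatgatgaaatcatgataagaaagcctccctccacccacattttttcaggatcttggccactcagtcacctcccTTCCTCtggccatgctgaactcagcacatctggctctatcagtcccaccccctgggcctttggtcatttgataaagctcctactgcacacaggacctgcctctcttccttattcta
Mrc1: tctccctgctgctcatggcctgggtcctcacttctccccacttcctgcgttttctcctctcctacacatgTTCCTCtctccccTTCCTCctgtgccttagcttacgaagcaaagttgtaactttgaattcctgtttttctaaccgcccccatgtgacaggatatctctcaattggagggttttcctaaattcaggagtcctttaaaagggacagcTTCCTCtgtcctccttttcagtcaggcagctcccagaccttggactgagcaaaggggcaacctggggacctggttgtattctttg
C1qa is not in the promoter table. Of the 35 genes, 26 had a promoter there. GAGGAA on either strand was in 12 of the 26, with no overlap between matches of the motifs searched, and in 28.3% of the 27025 promoters of all genes. Of the 8 promoters of genes that were lower in KO chimeras 6 held it, and of the 18 others 6 did. TGCTGA, a part of the Maf recognition element, was in 9 of the 26 promoters and in 19.1% of all. TGACNNNGC, the core of the antioxidant element, was in 4 of the 26 and in 12.5% of all. TCACGTG, found in lysosomal gene promoters, was in the promoter of Ctsd alone and in 3.84% of all. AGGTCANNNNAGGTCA, a strict form of the element for liver X receptors, was in 0 of the 26 and in 0.0111% of all. These matches describe the letters of the windows and nothing of binding.

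Of the 30 resident macrophage genes that could be tested, 10 (33.3%) were lower in KO chimera marrow, where 12.1% of all 23053 genes tested were lower. They were the complement genes C1qa and C1qc, the apoptotic cell recognition genes Cd5l, Axl and Stab1, the surface genes Mrc1 and Vcam1, the fatty acid receptor gene Cd36, the lipid carrier gene Apoe and the lysosomal gene Gpnmb. Hpgd alone, 1 of 30 (3.33%), was higher, against 10.2% of all genes. The other 19 tested genes did not pass at an adjusted p under 0.05, among them the pan-macrophage genes Emr1 and Cd68 and the iron recycling genes Spic, Hmox1 and Slc40a1. Gpnmb passed the filter on dim probes only through the control arrays. With a filter that asks for every array of a group, which also drops Siglec1, 9 of 28 genes were lower and 1 was higher. Under that stricter filter 5029 of all 20847 genes tested were called in either direction. The shares of 12.1% and 10.2% above belong to the main filter and not to the stricter one. The median difference was -0.17 over the 30 genes and -0.0194 over all genes tested. Cd163, Mertk, Timd4, Vsig4 and Folr2 were not well above background on enough arrays to be tested.

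**Figure D1:**
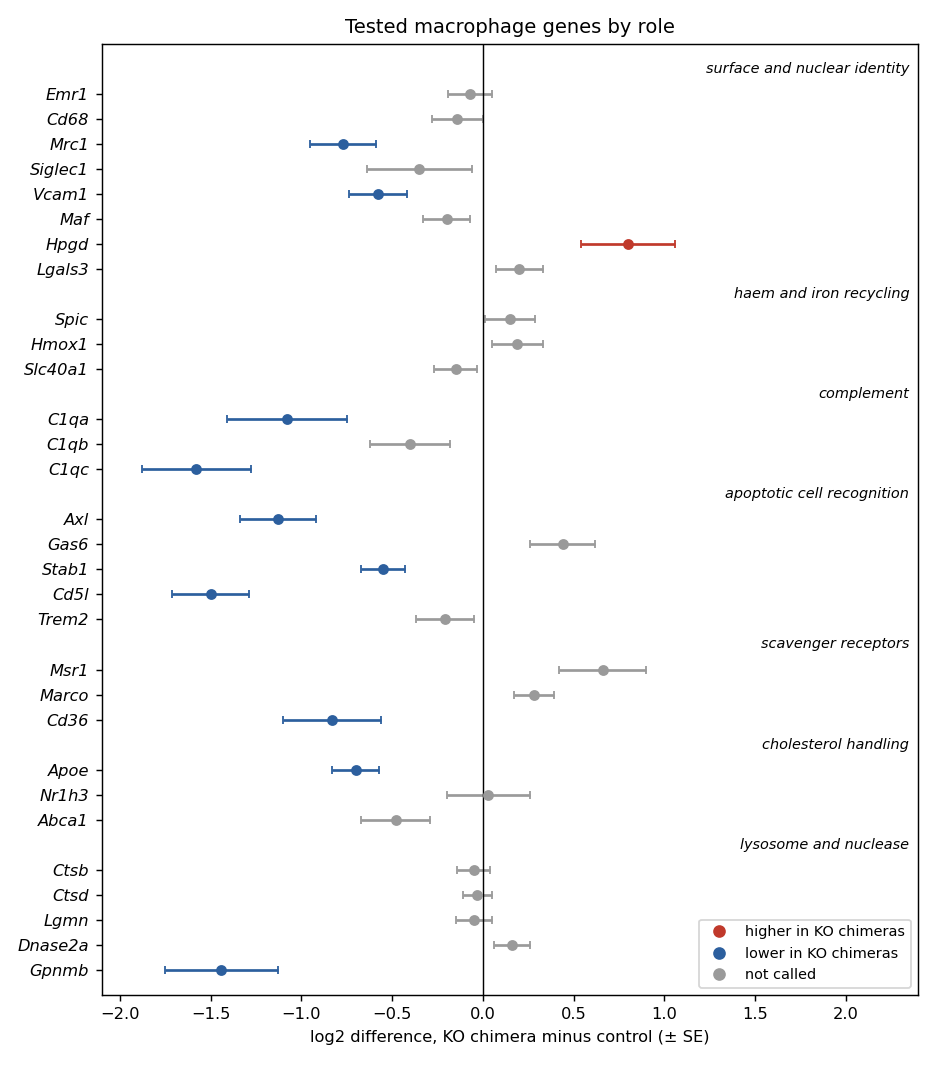
Log2 difference, KO chimera minus control, with its standard error for the 30 tested macrophage genes, grouped by role and coloured by the call at an adjusted p under 0.05. The 10 lower genes lie in every role except haem and iron recycling, and Hpgd is the 1 gene called higher.

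Among the genes grouped here as macrophage identity, which are mostly but not all surface or nuclear, 2 of 8 tested were lower and 1 was higher. Mrc1 encodes the mannose receptor (CD206), an endocytic lectin of tissue macrophages. Its level in KO chimeras was -2.56 in the lowest mouse, -2.02 at the median and -1.42 in the highest, against -1.84, -1.21 and -0.59 in controls. The groups overlapped at their edges, and all 8 KO chimeras lay below the control mean. The difference was -0.77 ± 0.18 (adjusted p = 0.00515), read by a probe at mm9 chr2:14253273-14253332.

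Vcam1 encodes the adhesion molecule by which island macrophages hold erythroblasts through alpha 4 beta 1 integrin, and endothelium and stromal cells of marrow express it too. Its brighter probe read 1.76, 2.41 and 2.74 (lowest, median and highest mouse) in KO chimeras and 2.58, 2.83 and 3.65 in controls, a difference of -0.58 ± 0.16 (adjusted p = 0.0149). KO6 and KO7, at 2.65 and 2.74, reached into the control range, and C8 at 2.58 was the lowest control. The dimmer Vcam1 probe did not follow the brighter one and is taken up with the other genes read by several probes.

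Hpgd, the enzyme that inactivates prostaglandin E2, was the gene that moved the other way. Its level was -2.14, -1.32 and -0.38 in KO chimeras, against -2.85, -2.01 and -1.29 in controls. Above the control mean lay 7 of the 8 KO chimeras, and KO6 at -2.14 lay below it. The difference was 0.80 ± 0.26 (adjusted p = 0.0333), and it did not pass with slide as a block (adjusted p = 0.0693), with array brightness as a covariate (0.0792), or in 9 of the 16 fits that left out 1 mouse (KO1, KO2, KO4, KO5, C1, C2, C4, C5 or C6, adjusted p up to 0.0677).

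The other 5 tested identity genes did not pass. Emr1 (Adgre1 today), the gene of the surface receptor most used to mark mouse macrophages, read 1.00, 1.43 and 1.86 in KO chimeras and 1.31, 1.52 and 1.77 in controls, a difference of -0.07 with a 95% interval of -0.32 to 0.18. Cd68, a lysosomal glycoprotein of all macrophages and monocytes, read 3.13, 3.44 and 3.87 against 3.32, 3.59 and 3.93 in controls, a difference of -0.14 (interval -0.42 to 0.15). The control range lay inside the KO range for Emr1, and the ranges of Cd68 nearly coincided. The transcription factor gene Maf differed by -0.20 ± 0.13 (adjusted p = 0.283) and Lgals3, which encodes galectin 3, by 0.20 ± 0.13 (adjusted p = 0.287). Siglec1, which encodes sialoadhesin (CD169), was dim: it was well above background on 4 KO chimera and 7 control arrays, and its difference of -0.35 ± 0.29 did not pass (adjusted p = 0.436). Folr2, the gene of folate receptor beta, was well above background on 0 KO chimera and 3 control arrays and was not tested.

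**Figure D2:**
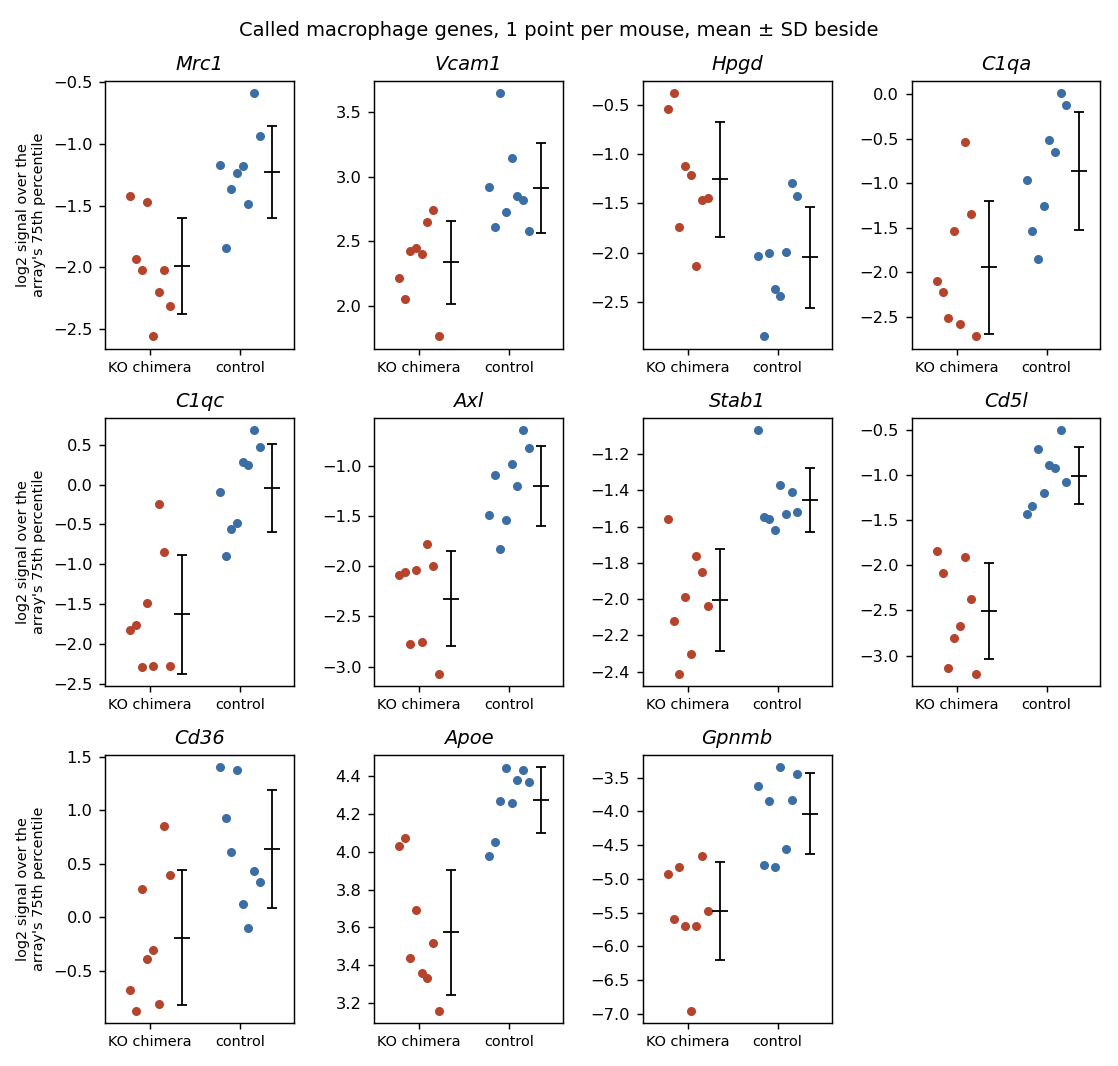
Level of each of the 11 called genes in each mouse (1 point per mouse, 8 KO chimeras left and 8 controls right), as log2 signal over the array's 75th percentile, with the group mean ± SD beside the points. Cd5l is the gene whose groups do not overlap, and for Gpnmb no KO chimera array was well above background.

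Clearing of dying cells gave 3 lower genes of 5 tested. Cd5l encodes a secreted scavenger protein of tissue macrophages that keeps macrophages alive. It read -3.20 in the lowest KO chimera, -2.52 at the median and -1.84 in the highest, against -1.43 in the lowest control and -0.50 in the highest. Its mean was -2.50 ± 0.53 in KO chimeras and -1.01 ± 0.32 in controls (SD, n = 8 mice each). The highest KO chimera, KO1, lay below the lowest control, C1. Cd5l was the 1 gene of the 30 whose KO values all lay below all control values, which held for 3.27% of all genes tested. The difference was -1.50 ± 0.21 (adjusted p = 4.83e-05), or 0.354 of the control level, and it passed in every alternative fit that was run, though with normexp background correction and quantile normalization it was smaller, at -0.87. Its probe lies at mm9 chr3:87174823-87174882.

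Axl encodes a receptor tyrosine kinase that recognises phosphatidylserine on dying cells through its ligand Gas6. It read -3.07, -2.07 and -1.78 in KO chimeras and -1.83, -1.15 and -0.64 in controls, a difference of -1.13 ± 0.21 (adjusted p = 7.3e-04). The overlap consisted of KO6 at -1.78 and C3 at -1.83. Gas6 itself did not pass: it read -1.24, -0.51 and 0.35 in KO chimeras and -1.21, -0.88 and -0.55 in controls (difference 0.44 ± 0.18, adjusted p = 0.0921), and it passed when KO5, the lowest mouse, was left out (adjusted p = 0.021). Mertk, the related kinase that macrophages use for the same ligand, was well above background on 0 of 8 KO chimera arrays and on 5 of 8 control arrays. It was not tested behind the filter on dim probes. Its bound, at least 2.11-fold lower in KO chimeras, depends on the floor used and also averages the control arrays that were not well above background. Without the filter its adjusted p was 0.0334, which is a description only, since no KO chimera array was well above background.

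Stab1 encodes stabilin 1, a scavenger receptor of macrophages and sinus endothelium that also binds phosphatidylserine. It read -2.41, -2.01 and -1.56 in KO chimeras and -1.62, -1.53 and -1.07 in controls. KO1 at -1.56 was the 1 KO chimera within the control range. The difference was -0.55 ± 0.12 (adjusted p = 0.00262). Trem2, a lipid receptor gene of macrophages and osteoclast precursors, read 0.56, 0.92 and 1.34 against 0.69, 1.11 and 1.68 in controls and did not pass (difference -0.21 ± 0.16, adjusted p = 0.393). Timd4, which encodes the phosphatidylserine receptor TIM-4, was well above background on 2 KO chimera and 1 control arrays and was not tested.

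The C1q chains, which together make the recognition molecule of the classical complement pathway and coat dying cells, gave calls for C1qa and C1qc and none for C1qb. Whether the chains differ from each other was not tested. C1qc read -2.29, -1.80 and -0.25 in KO chimeras and -0.89, 0.08 and 0.68 in controls. KO6 at -0.25 and KO7 at -0.84 lay within the control range, and the other 6 KO chimeras lay below every control. The difference of -1.58 ± 0.30 (adjusted p = 0.00108), a level 0.334 of the control level, rested on 10 spots per array, whose median SD of 0.0863 was far below the SD between mice of 0.74 in KO chimeras and 0.55 in controls. C1qa read -2.72, -2.16 and -0.54 against -1.85, -0.81 and 0.01 in controls, a difference of -1.08 ± 0.33 (adjusted p = 0.0235). With array brightness as a covariate C1qa no longer passed (adjusted p = 0.0566). C1qb read -1.43, -1.20 and -0.30 in KO chimeras and -1.37, -0.49 and 0.01 in controls and did not pass (difference -0.40 ± 0.22, adjusted p = 0.204, interval -0.86 to 0.05). In all 3 genes KO6 was the highest KO chimera, KO7 was second to it, and C7 and C8 were the highest controls. The probes lie at mm9 chr4:136445766-136445825 (C1qc), chr4:136452409-136452468 (C1qa) and chr4:136436578-136436637 (C1qb). Vsig4, which encodes a complement receptor of resident macrophages, was well above background on 0 KO chimera and 2 control arrays and was not tested.

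Cd36 was the lower gene among 3 scavenger receptor genes. It encodes a receptor for oxidised lipid and fatty acids, which megakaryocytes and erythroid precursors carry as well. It read -0.87, -0.34 and 0.85 in KO chimeras and -0.10, 0.52 and 1.40 in controls, with KO3, KO7 and KO8 inside the control range. The difference was -0.83 ± 0.27 (adjusted p = 0.0386). It was the least stable of the lower calls, since it did not pass in 9 of the 16 fits without 1 mouse (KO1, KO2, KO4, KO5, KO6, C1, C2, C3 or C4, adjusted p up to 0.0777). It did not pass with the replicate number as a block (0.0701), with array weights (0.117), with array brightness as a covariate (0.0878) or with no filter (0.0638) either. Msr1, which encodes scavenger receptor A, did not pass on its brighter probe (0.66 ± 0.24, adjusted p = 0.0564). It passed, as higher, with slide as a fixed block (adjusted p = 0.0414), with slide as a random block (0.0386) and with scan day as a block (0.0146); under the fixed slide block it was the 1 higher gene, in place of Hpgd. Marco, the gene of a bacteria-binding scavenger receptor, read -1.87, -1.66 and -1.45 in KO chimeras and -2.39, -1.94 and -1.57 in controls. All 8 KO chimeras lay above the control mean for Marco, and the difference of 0.28 ± 0.11 did not pass (adjusted p = 0.0782).

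In cholesterol handling, Apoe was lower and its regulator was not called. Apoe encodes a lipid carrier that macrophages secrete and that liver X receptors induce. It read 3.16, 3.48 and 4.07 in KO chimeras and 3.98, 4.32 and 4.44 in controls, a difference of -0.70 ± 0.13 (adjusted p = 8.49e-04). KO1 and KO2, at 4.03 and 4.07, reached the control range, whose lowest mice were C1 and C2. Over the 10 Apoe spots of an array the median SD was 0.0391, against 0.33 between KO chimeras and 0.17 between controls. Nr1h3, which encodes liver X receptor alpha, differed by 0.03 ± 0.23 (adjusted p = 0.949). Abca1, the cholesterol exporter gene that this receptor induces, read -1.93, -0.75 and -0.54 in KO chimeras and -0.93, -0.50 and 0.20 in controls. All 8 KO chimeras lay below the control mean of Abca1, but the difference of -0.48 ± 0.19 did not pass (adjusted p = 0.0831).

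Gpnmb was the lower gene among the lysosome and nuclease genes, and the enzymes among them were not called on their brighter probes. Gpnmb encodes a glycoprotein of lysosome-rich macrophages and osteoclasts. No KO chimera array was well above background for it and 6 of 8 control arrays were. Its fold is therefore a bound that depends on the floor set for dim signals. By that bound it was at least 2.25-fold lower in KO chimeras (adjusted p = 0.00255). The bound holds for this scale only: with normexp background correction and quantile normalization the difference of Gpnmb was -0.29. Since it was tested only because the controls were bright, its p is a description. Ctsb, the gene of the lysosomal protease cathepsin B, differed by -0.05 (interval -0.24 to 0.13), Ctsd, that of cathepsin D, by -0.03 (-0.19 to 0.13), and Lgmn, that of legumain, by -0.05 (-0.26 to 0.17). Dnase2a, whose enzyme digests the DNA of expelled erythroblast nuclei, read 6.10, 6.44 and 6.86 in KO chimeras and 6.21, 6.29 and 6.42 in controls (difference 0.16 ± 0.10, adjusted p = 0.297). For Dnase2a KO1, KO2, KO3 and KO5 lay above the highest control and KO6 and KO7 below the lowest.

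No haem and iron recycling gene was called on its brighter probe. Spic encodes the transcription factor that red pulp and marrow iron-recycling macrophages need. It read -1.71, -1.14 and -0.86 in KO chimeras and -1.80, -1.34 and -1.06 in controls, a difference of 0.15 with an interval of -0.14 to 0.44. Slc40a1 encodes ferroportin, the iron exporter, and read 2.08, 2.58 and 3.06 against 2.60, 2.65 and 2.88 in controls (difference -0.15, interval -0.39 to 0.10). The KO chimeras spread more widely for Slc40a1, with an SD of 0.32 against 0.09 in controls. Hmox1, which encodes the inducible haem oxygenase, read 1.27, 2.04 and 2.27 in KO chimeras and 1.42, 1.74 and 1.90 in controls (difference 0.19, interval -0.12 to 0.49). Cd163, the gene of the haemoglobin receptor, was well above background on 0 KO chimera and 1 control arrays and was not tested.

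For genes read by several probes, the probe chosen decided some of the calls. Of the 38 probes of the list that passed the filter, 15 (39.5%) were called in a fit per probe, 10 lower and 5 higher, against 23.6% of all probes in either direction. Of the 8 genes with 2 such probes, Vcam1, Hmox1, Msr1 and Ctsd were called on only 1. The dimmer probes of these 4 genes, on which the reading turned, are printed 5′ to 3′ as the array design gives them; capitals are not used.
Vcam1: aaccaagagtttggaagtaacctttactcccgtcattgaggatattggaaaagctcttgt
Hmox1: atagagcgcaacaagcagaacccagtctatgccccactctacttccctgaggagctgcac
Msr1: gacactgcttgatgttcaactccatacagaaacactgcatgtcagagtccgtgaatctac
Ctsd: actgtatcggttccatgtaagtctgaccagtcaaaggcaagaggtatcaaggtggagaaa
They lie at mm9 chr3:115828953-115829012 (Vcam1), chr8:77620797-77620856 (Hmox1), chr8:40709296-40709355 (Msr1) and chr7:149566847-149568505 (Ctsd), each on the 5′ side of the brighter probe by 15678, 3351, 20079 and 4826 bases of genome in the same order. The Ctsd probe of 60 bases spans 1659 bases of genome. On it Ctsd read 1.72, 1.99 and 2.48 in KO chimeras and 0.64, 1.12 and 1.54 in controls, with no overlap, and the difference was 0.90 ± 0.14 (adjusted p = 1.47e-04), where the brighter probe gave -0.03 ± 0.08. The dimmer Hmox1 probe read -1.30, -0.90 and -0.31 in KO chimeras and -1.63, -1.43 and -1.19 in controls. Its difference was 0.60 ± 0.13 (adjusted p = 0.00257), and all 8 KO chimeras lay above the control mean. The dimmer Msr1 probe gave 1.02 ± 0.24 (adjusted p = 0.00452), in the same direction as the brighter one. The dimmer Vcam1 probe gave 0.24 ± 0.18 (adjusted p = 0.384), opposite in sign to the brighter one, so that the direction of Vcam1 rests on 1 probe. The probes of Hpgd were both called higher (0.80 and 0.95 ± 0.31). The probes of Emr1, Cd68 and Nr1h3 were not called.

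**Figure D3:**
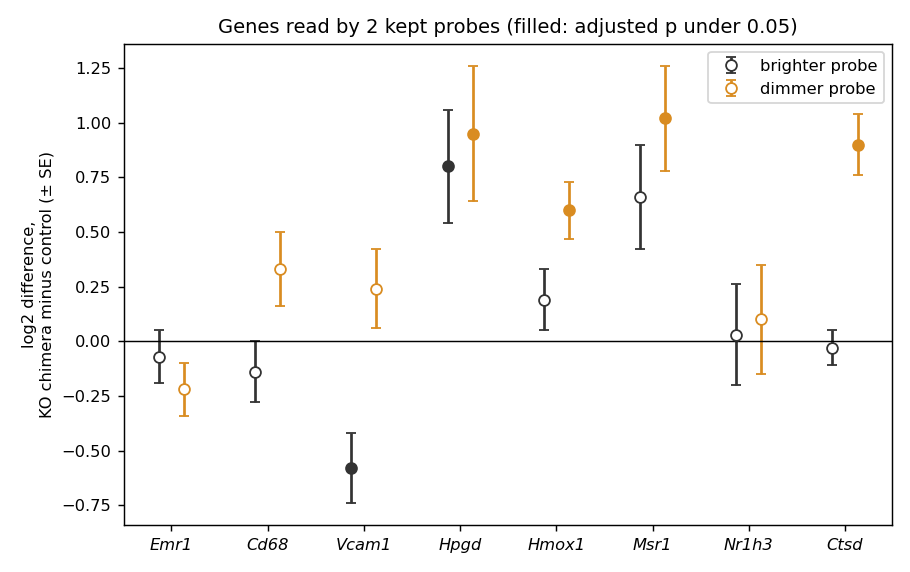
Log2 difference, KO chimera minus control, with its standard error for the 8 genes with 2 kept probes, the brighter probe in black and the dimmer in orange, filled where the adjusted p was under 0.05. The probes of Ctsd and Vcam1 lie apart, and those of Hpgd and Msr1 lie on the same side of 0.

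The KO chimeras did not share the lower genes evenly. Averaged over the 9 lower genes that were well above background in both groups (Gpnmb left out), the distance from the control mean was -0.59 in KO6, -0.60 in KO7, -0.81 in KO1, -0.85 in KO4, -0.99 in KO2, -1.23 in KO3, -1.30 in KO5 and -1.37 in KO8. The controls ran between -0.30 in C2 and 0.35 in C7, so every KO chimera lay below every control on this average, a direction that the choice of the lower genes fixes. KO6 and KO7 each lay inside the control range for 4 of the 9 genes, KO1 for 3 and KO5 for 0. The mouse nearest to the controls changed with the gene: KO6 was the highest KO chimera for C1qa, C1qc and Axl, KO7 for Cd36 and Vcam1, KO2 for Apoe, and KO1 for Cd5l, Mrc1 and Stab1. KO8 was the lowest KO chimera for 5 of the 9 genes, among them Cd5l, Axl and Apoe. Its array had the most probes well above background of the KO chimeras, at 37121.

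**Figure D4:**
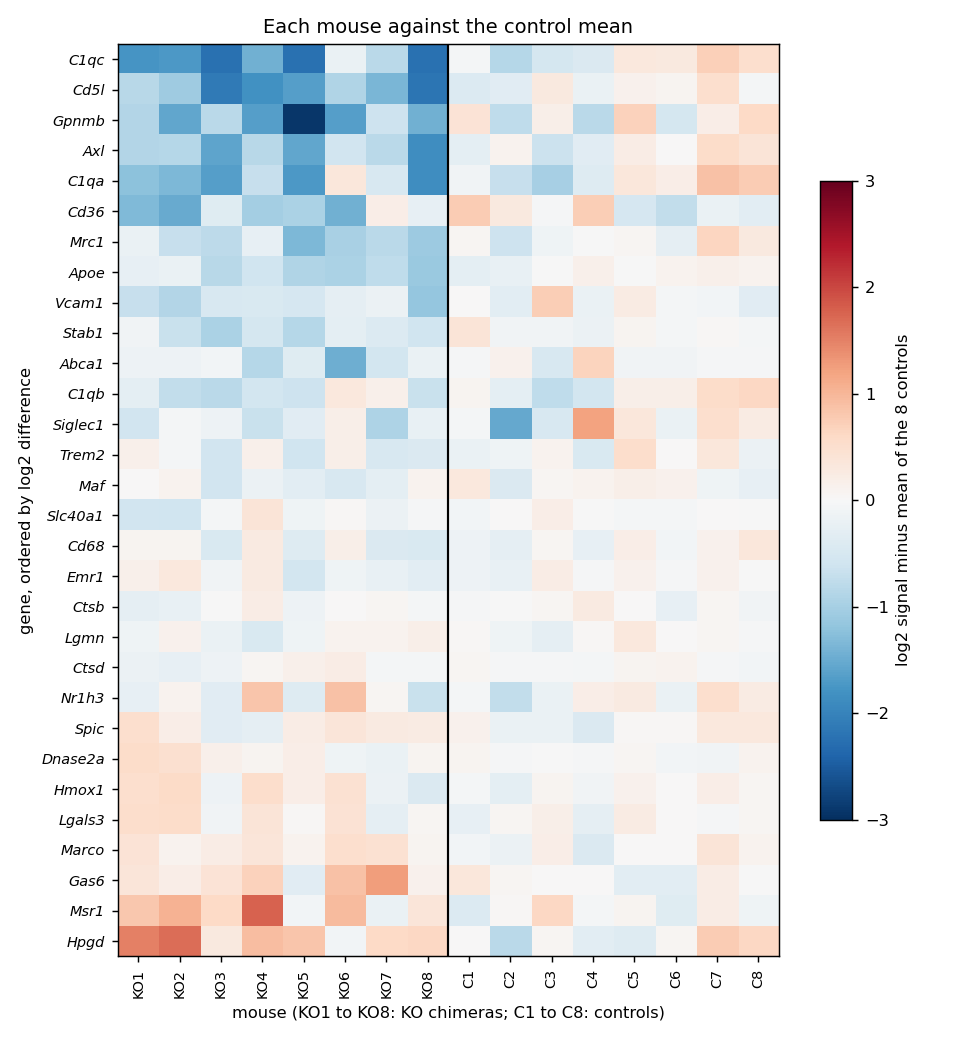
Level of the 30 tested genes in each mouse minus the mean of the 8 controls (colour, log2), genes ordered by their difference and mice by group, KO1 to KO8 left of C1 to C8. The top rows are lower across nearly all KO chimeras, with KO6 near the controls for C1qa and C1qc, and the middle rows stay near 0.

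Arrays lay on 6 slides and were scanned on 2 days, with 4 KO chimeras and 4 controls on each day. Within each scan day the 9 lower genes other than Gpnmb all had a negative difference, with a median of -0.81 on day 1 and -0.72 on day 2. These genes and Hpgd were chosen by their direction on the same mice, so the signs by day or slide are largely fixed. Cd5l differed by -1.66 and -1.33 on days 1 and 2, C1qc by -1.43 and -1.74, and Apoe by -0.72 and -0.68. Hpgd was higher on both, by 0.68 and 0.91, and did not pass within either. With 4 mice against 4, Cd5l, Apoe and Gpnmb passed on day 1 and Cd5l, C1qc and Axl on day 2. For Gpnmb this is a description only. On 4 of the 5 slides that held both groups all 9 genes were negative, and on slide 2 (1 KO chimera and 2 controls) 8 were, Cd36 being at 0.20. Across these slides Cd5l ran between -1.86 and -1.18, C1qc between -2.52 and -0.92, Apoe between -0.89 and -0.65 and Stab1 between -0.57 and -0.40. Slide 6 held 1 control alone.

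**Figure D5:**
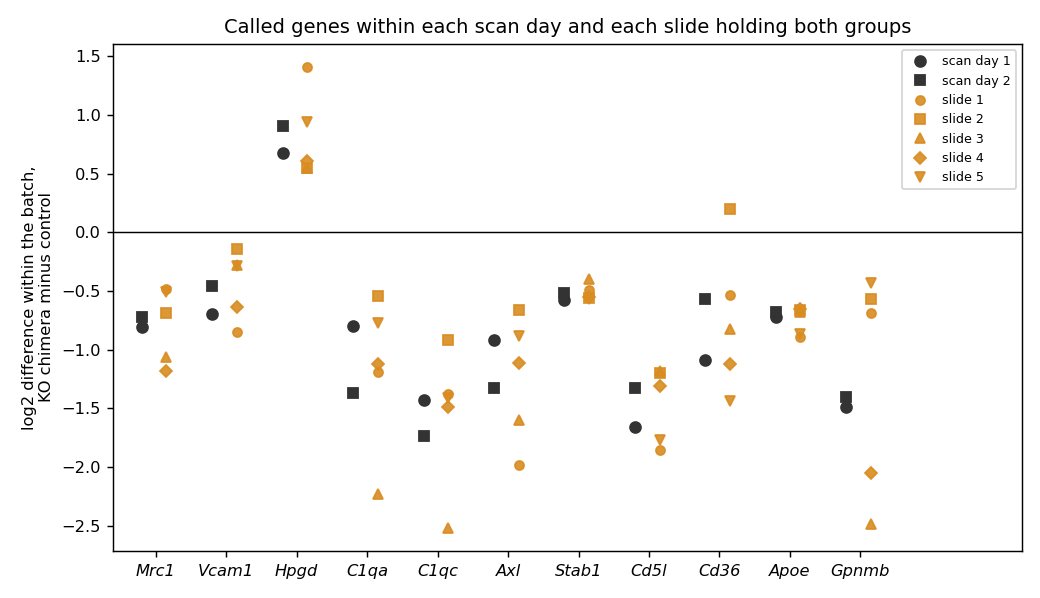
Log2 difference, KO chimera minus control, of each called gene within each scan day (black) and within each of the 5 slides that held both groups (orange). Every point of the 10 lower genes lies below 0 except Cd36 on slide 2, and every point of Hpgd lies above 0. The genes were chosen by direction on the same mice, so the side of 0 is largely fixed.

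Further genes of the same pathways were called about as often as genes at large: of the 130 tested genes of 7 other lists, 10.8% were lower and 10% higher, against 12.1% and 10.2% of all genes. Of 17 other tissue macrophage genes tested 2 were lower and 1 was higher, with a median of -0.05. Slco2b1, which encodes an organic anion transporter of tissue macrophages, was lower by -2.22 ± 0.34 (adjusted p = 1.52e-04). That size is approximate because only 2 KO chimera arrays, against 8 control arrays, were well above background. Slco2b1 passed the filter on dim probes only through the control arrays, so its p is a description. Fcgr1, the gene of the high-affinity IgG receptor, was lower by -1.33 ± 0.39 (adjusted p = 0.0206), and Clec4n, which encodes the lectin dectin 2, was higher by 0.77 ± 0.19 (adjusted p = 0.00745). Fcgr1 spread over -4.97 to -1.20 in KO chimeras, against -1.95 to -1.30 in controls.

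Of 18 tested genes of apoptotic cell uptake 3 were higher and 2 lower. Tyro3, the third receptor kinase of the Axl and Mertk family, was higher by 1.29 ± 0.13 (adjusted p = 1.13e-06) on its brighter probe and gave 0.27 ± 0.29 on a dimmer one, while Axl was lower. Stab2, the sinus endothelial paralogue of Stab1, went the other way from it and was higher by 4.99 ± 0.22 (adjusted p = 3.3e-11). Its 3 kept probes did not overlap between groups. A dimmer one was well above background on 8 KO chimera and 2 control arrays. That probe was kept only through the KO chimera arrays, so its lack of overlap is a description. Itgb3, the beta 3 integrin chain, was lower by -1.57 ± 0.12 (adjusted p = 3.66e-08) and by -0.57 ± 0.13 on its dimmer probe. Of 16 tested complement genes outside C1q, 2 were lower and 2 higher. C5ar1, the receptor of the C5a fragment, was lower by -2.03 ± 0.15 (adjusted p = 2.54e-08), C4b, which acts just after C1q, was higher by 0.85 ± 0.25 (adjusted p = 0.0227), and Itgam, a chain of complement receptor 3, was lower by -0.31 ± 0.08 (adjusted p = 0.0142) on its brightest probe but was called higher on another (0.34 ± 0.11, adjusted p = 0.0415) and gave 0.26 on the other one, so that its direction is not settled.

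Of 17 tested genes of liver X receptor and cholesterol handling 4 were lower and 3 higher, with a median of -0.10. Srebf1, a lipid synthesis regulator that liver X receptors induce, was lower by -0.80 ± 0.14 (adjusted p = 4.72e-04). The lysosomal lipase gene Lipa was higher by 0.90 ± 0.11 (adjusted p = 1.5e-05) and the cholesterol esterifying enzyme gene Soat1 by 1.26 ± 0.18 (adjusted p = 6.28e-05). Of 27 tested lysosomal genes 3 were higher and 2 lower, with Psap (saposin precursor) at 0.41 ± 0.12 and Ctsa (cathepsin A) at 0.33 ± 0.10. Of 17 tested haem and iron genes 1 was higher, the ferritin heavy chain gene Fth1 at 0.38 ± 0.08 (adjusted p = 0.00232), and 1 lower, the oxidative stress regulator gene Nfe2l2 at -0.54 ± 0.09 (adjusted p = 5.14e-04). Of 18 tested island adhesion and erythroblast genes 1 was lower and 0 higher. That gene was Itga4, the alpha 4 chain of the integrin that binds VCAM-1, at -2.40 ± 0.30 (adjusted p = 1.49e-05) on its brighter probe and 0.00 ± 0.12 (adjusted p = 0.997) on its dimmer one.

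Markers of other cell types, some of which share genes with the list, were called lower for 22% and higher for 9.89% of the 91 tested, against 12.1% and 10.2% of all genes, and their part in the results was not tested. The dendritic cell list had 4 lower and 0 higher of 8 tested, with a summed linear signal of 181 to 314 in KO chimeras and 207 to 243 in controls. That sum mostly reads Siglech, which was not called (mean level 7.67 in KO chimeras and 7.57 in controls), and the 4 lower genes add little to it. Xcr1 was well above background on no array. The osteoclast list had 2 lower of 6, at 49.0 to 103 in KO chimeras and 64.6 to 113 in controls. Of the 2 lower genes, Atp6v0d2 was well above background on 0 KO chimera and 6 control arrays. It passed the filter on dim probes only through the control arrays, so its p is a description. The osteoclast sum mostly reads Acp5 (mean level 5.78 in KO chimeras and 5.89 in controls) and Mmp9, which were not called. Calcr was well above background on no array. The megakaryocyte list had 5 lower of 8, at 18.5 to 46.3 in KO chimeras and 32.3 to 65.9 in controls. The stem and progenitor list had 6 lower of 7, at 22.1 to 29.8 in KO chimeras and 29.4 to 43.7 in controls. The monocyte list had 4 higher and 0 lower of 11, at 535 to 880 in KO chimeras and 463 to 648 in controls. The endothelial list, which holds Stab2, had 2 higher and 2 lower of 6, at 26.8 to 38.2 against 21.5 to 31.1 in controls. Emcn was well above background on no array. The B lineage list had 1 higher of 8, the T and NK cell list 1 higher and 1 lower of 8, the stroma and bone list 1 higher of 8 and the adipocyte list 0 of 4.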

How the data were processed

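Images of 16 arrays were read by Agilent Feature Extraction, version 10.1.1.1 in the file headers and 10.7 in the submitters' processing notes. The headers name mouse build mm9 for probe positions. The deposited scanner files hold linear spot intensity from which, per the file headers, background was already subtracted. The authors' deposited value table holds log2 values, quantile normalized per the labels, and was used as an alternative. Groups and replicate numbers came from the titles, and the labels describe each sample as a mouse of its own.

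Non-control signals were divided by the 75th percentile of their array and taken to log2, without outlier spots, and spots of 1 probe were averaged. A probe was kept if the deposited flag called it well above background on at least 6 of 8 arrays in either group (32675 of 55681), and the brightest kept probe stood for its gene. The groups were compared by limma (version 3.58.1, R 4.3.3) with moderated variances, a two-sided test and Benjamini-Hochberg adjustment over 23053 genes, and adjusted p under 0.05 was a call. The script was tested on simulated data. A fold given as "at least" sets the mean of the group with signal against a floor in the other group, on each array the dimmest signal that was still well above background, or the probe's own where that was higher. Summed list signals add the linear ratios of the tested genes with a value on every array, so the brightest genes of a list weigh most in them.

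The 35 genes, the other lists and the tests were chosen with earlier results of these data known. All 35 genes are named, and from each other gene list up to 3 called genes by smallest p; marker lists are given as counts. Another targeted receptor gene and 1 lysosomal gene that this rule names are not reported here. Promoters come from RefSeq (GRCm38.p6), where all 35 names matched. No array was a copy of another (highest correlation 0.9933). Same-numbered mice did not vary together: over 8 pairs the correlation of their deviations ran between -0.195 and 0.198 and exceeded 0.1 in 2. Alternatives were other normalizations, filters and probe rules, blocks for slide, scan day and replicate number, array weights, array brightness, thresholds and leaving out each mouse.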

Additional observations from a re-analysis of the deposited data

Results flagged for a closer look

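In 3 of 60 groups of 8 mice (30 genes, each in KO chimeras and in controls) 1 mouse stood apart from the rest by Dixon's test, about the share of 1 in 20 that chance gives. For Gpnmb the KO chimera KO5 read -6.95 and the nearest KO chimera -5.70, and no KO chimera array was well above background. For Slc40a1, the ferroportin gene, control C3, the 1 mouse of slide 6, read 2.88 and the nearest control 2.69. For Stab1 control C1 read -1.07 and the nearest control -1.37. The call of Stab1 remained when each mouse was left out in turn. In the same fits the adjusted p of Gpnmb was at most 0.00626. Gpnmb was tested only because the controls were bright, so these p values are a description.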

How the results depend on the processing

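The count of lower genes, 10 in the report, was 8 to 10 in all fits over 16 mice at the 0.05 threshold and 7 at an adjusted p under 0.01. It was 9 or 10 when 1 mouse was left out, and 3 within scan day 1 and 3 within scan day 2, where 4 mice were compared with 4. With no filter the count of 10 left out Cd36 (adjusted p = 0.0638) and took in Mertk (0.0334), for which no KO chimera array was well above background. Cd5l passed throughout. With normexp and quantile normalization 10 genes were again lower, but sizes shrank by over 1.5 times for Cd5l (-0.87), Axl (-0.62), Mrc1 (-0.45), Stab1 (-0.32), Gpnmb (-0.29) and, among higher genes, Hpgd (0.47). Leaving Gpnmb out of the values per mouse and batch was chosen after seeing the data. The count of higher genes, 1 in the report, was 0 with no filter, 4 with the mean of a gene's probes (Hpgd, Msr1, Hmox1 and Ctsd), 3 with slide as a random block, 2 with scan day as a fixed block, 0 within scan day 1, 0 within scan day 2, 0 with brightness as a covariate, 0 at an adjusted p under 0.01 and 0 to 2 when 1 mouse was left out. Ctsd, at -0.03, turned to 0.43 (adjusted p = 7.83e-04) with the mean of its probes, and Vcam1 read -0.17 (adjusted p = 0.485), as their probes disagree. The fit with the replicate block gave 0 higher and 9 lower genes of the list and 4732 calls over all genes, against 5143 without it; of the 8 numbers, 1 correlated best with its own. Over all genes, 2360 higher and 2783 lower became 698 and 913 within day 1, 1218 and 1096 within day 2, and 1390 and 1608 at an adjusted p under 0.01. Leaving out the slide without both groups gave the same values as slide as a fixed block. Signal over background limits Siglec1, Gpnmb and the 5 untested genes.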
